A study of Mus musculus with 80 samples.

Results

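The 481 reporters described here are barcoded transgenes that had landed on mouse chromosome 15. They are the rows of the deposited table with a chromosome 15 position and at least 10 DNA counts in all 8 DNA libraries of their pool, and they make up 4.46% of the 10785 reporters that pass this minimum. Pool A holds 78 of them, pool B 130, pool C 132 and pool D 141. The chromosome was selected on measured levels, the log2 RNA/DNA of its reporters, because its distal reporters stood above its proximal ones, and a 5 Mb window at chr15:75000001-80000000 was singled out as a distal high domain for the same reason. Both contrasts are therefore given as descriptions, with no test. Of 487 reporters deposited on the chromosome, 6 fell below the minimum, with a lowest DNA count of 6 to 9, and the members just above it had 10, 12 and 13.

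The series used TRIP, an assay in which many copies of a reporter, each with its own short barcode, are scattered over the genome and read out in parallel. The cells were EBRTcH3, a line of mouse embryonic stem cells in which the ROSA26 promoter drives the tetracycline-controlled transactivator (tTA), kept with leukemia inhibitory factor and inhibitors of MEK and GSK-3. Every group carries tTA and a reporter put in by piggyBac, and the groups differ in doxycycline (dox): 0, 0.01, 0.1 or 100 ng/ml for 72 h. Each pool was split into 2 cultures that served as technical replicates, so replicate spread here is the spread between cultures of 1 pool, and the 4 pools are the independent units. Pools were grown from cells sorted for low eGFP, and within a pool each barcode stands for 1 integration in a mixed population. The labels call the construct tet-Off in most places and speak of an mPGK promoter in the growth and treatment text, so the promoter is named here only as the titles name it. Cell type markers cannot be checked in a table of barcodes.

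In a tet-Off system tTA binds operator sites in front of a promoter and activates it, and dox removes tTA from those sites, so a rising dose withdraws the activator step by step. What a reporter then makes depends on its own promoter and on the chromatin and genes around the landing site, which is known as position effect. PiggyBac is a transposon that inserts at TTAA sites and is known to favour open, transcribed chromatin. Levels are given as log2 RNA/DNA: barcode counts in RNA over barcode counts in genomic DNA, each divided by its library total with a pseudocount of 1, averaged over 2 replicates and set to 0 at the mean of all reporters of the pool at that dose. A level says where a reporter stands among those of its pool, and a fall shared by all of them is not in it. RNA in a mixed culture does not tell apart fewer expressing cells from less RNA per cell.

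The barcode is the only sequence by which each reporter was counted. Those of the 10 reporters that carry the results below are shown in lower case throughout, 5′ to 3′ as deposited, since no part of a barcode was singled out. They are the highest and the lowest at dox 0, the highest at dox 100, the largest fall, the largest rises inside and outside the distal high domain, and 2 pairs of close neighbours from different pools.
pool A at 76907784, highest at dox 0: tatttgctagagacgt
pool A at 82855831, lowest at dox 0: aatagacaacattcgt
pool C at 81531530, highest at dox 100: tcagaaacactaatgc
pool B at 73321176, largest fall: gggacaccatcacgtga
pool C at 37476355, largest rise: ttaaatggtacaattc
pool C at 79913601, largest rise in the domain: gtaaacaccaattcgt
pool C at 38322708, close pair: gaagggtgcacagggg
pool D at 38322709, close pair: gctcttgtttccgcac
pool C at 76805340, close pair: acacgaggtcatttac
pool B at 76805961, close pair: cgaacacgtcaaaatt

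Counts per library ran from 729552 to 1840870 for RNA and from 928128 to 1571280 for DNA. Chromosome 15 took 4.41% to 4.47% of the DNA counts at the 4 doses (means over 4 pools). In the DNA libraries alone 0 of the 481 reporters differed between dox 100 and dox 0 (edgeR quasi-likelihood test, Benjamini-Hochberg adjusted; 0% of all 10785 reporters), 33 had an unadjusted p under 0.05, and the count was also 0 with library totals and with a replicate block. Positions are those deposited, in mm9, and genes at the landing sites were not analysed here.

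At dox 0 the distal reporters stood above the proximal ones in all 4 pools. The chromosome was parted at 51704167, the midpoint between base 1 and its highest member, which left 294 distal and 187 proximal reporters. Distal levels averaged 0.52 ± 0.26 and proximal levels −0.67 ± 0.24 on the log2 scale (SD, n = 4 pools). The distal minus proximal difference was 1.28 in pool A, 1.31 in pool B, 1.23 in pool C and 0.97 in pool D, or 1.20 ± 0.15 (SD, n = 4 pools). The pool means of the distal reporters, 0.27 to 0.76, did not overlap those of the proximal reporters, −1.02 to −0.49. Among 20 chromosomes cut in the same way, chromosome 15 ranked 3 from the highest difference, after chromosomes 3 (1.25 ± 0.31) and 4 (1.22 ± 0.27; SD, n = 4 pools). As a whole the chromosome lay close to the rest of the genome, with a chromosome 15 minus other difference of 0.07 ± 0.19 at dox 0 (SD, n = 4 pools).

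With more dox the distal minus proximal difference had like means and a wider spread between pools. It was 1.11 ± 0.33 at dox 0.01, 1.00 ± 0.42 at dox 0.1 and 0.92 ± 0.93 at dox 100 (SD, n = 4 pools), which ranked 4, 6 and 5 among the 20 chromosomes. At dox 100 pools B and C stood at 1.68 and 1.77, and pools A and D at 0.03 and 0.21. The cultures of a pool lay close together at this dose, from −0.13 to 0.18 in pool A and from 0.06 to 0.36 in pool D, against 1.42 to 1.94 in pool B and 1.65 to 1.89 in pool C. At dox 0.1 the cultures of pool A disagreed, with −0.40 in replicate 1 and 1.39 in replicate 2. Without the reporters of the distal high domain the difference was 0.92 ± 0.13 at dox 0, 0.72 ± 0.27 at dox 0.01, 0.47 ± 0.37 at dox 0.1 and 0.52 ± 0.71 at dox 100 (SD, n = 4 pools).

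**Figure D1:**
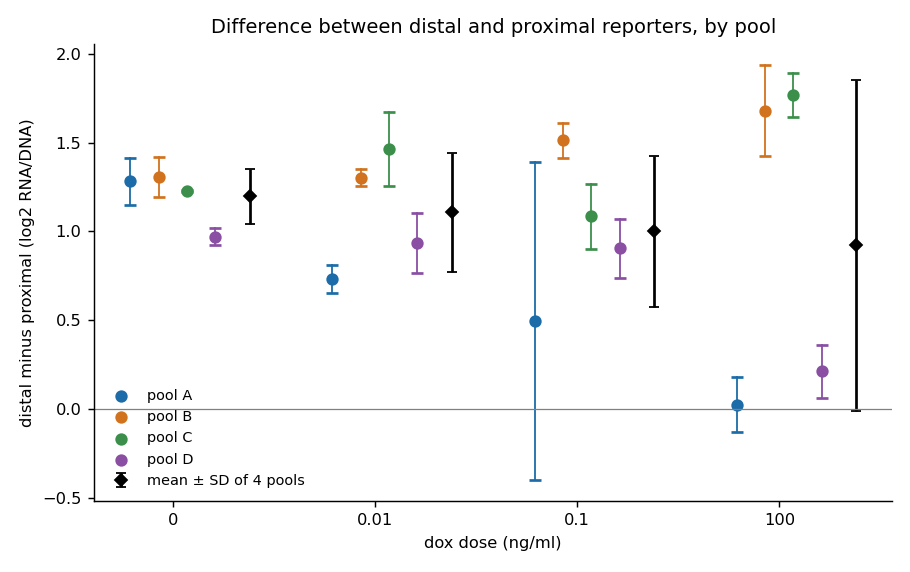
Mean level of distal minus mean level of proximal chromosome 15 reporters (log2 RNA/DNA) by dox dose in ng/ml. Dots are pools, the short bars joined to a dot are its 2 replicate cultures, and diamonds with bars are mean ± SD of the 4 pools; the pools lie between 0.97 and 1.31 at dox 0 and between 0.03 and 1.77 at dox 100.

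The distal high domain, chr15:75000001-80000000, held 49 reporters from all 4 pools and had the highest mean of the 19 windows of 5 Mb with at least 5 reporters. Of these 49, 43 lay above their pool mean at dox 0. The lowest stood at −3.02, the median at 2.27 and the highest at 4.52. The pool means averaged 1.94 ± 0.38 at dox 0, 2.47 ± 0.75 at dox 0.01, 3.30 ± 1.10 at dox 0.1 and 2.49 ± 1.79 at dox 100 (SD, n = 4 pools). The domain minus the rest of the distal reporters came to 1.70 ± 0.28, 2.34 ± 0.52, 3.17 ± 0.86 and 2.29 ± 1.29 at the same 4 doses (SD, n = 4 pools). Its pools lay further apart at dox 100, at 1.35 in pool A, 4.10 in pool B, 3.93 in pool C and 0.58 in pool D. At that dose other windows with at least 5 reporters stood above it in pools A and D. In pool A these were the windows at 100000001 (3.02, 2 reporters of that pool) and 25000001 (2.46, 4 reporters). In pool D they were those at 100000001 (1.23), 55000001 (1.10), 70000001 (0.73), 35000001 (0.72) and 85000001 (0.72).

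In counts, the domain took 0.70% ± 0.33 of the RNA at dox 100 and 1.18% ± 0.35 at dox 0, beside 0.48% ± 0.11 and 0.46% ± 0.14 of the DNA (SD, n = 4 pools). Its share of RNA over its share of DNA differed between pools. In pool D it was 2.77 at dox 0, 2.68 at dox 0.01, 1.27 at dox 0.1 and 0.56 at dox 100. In pool A the same ratio was 2.23, 1.89, 1.38 and 1.99. For the whole chromosome the RNA share was 2.74% ± 1.19 at dox 100 and 4.90% ± 1.26 at dox 0 (SD, n = 4 pools). Its mean level was 0.21 ± 0.42 at dox 100 and 0.07 ± 0.18 at dox 0 (SD, n = 4 pools). In pool D that level was lower at dox 100, at −0.35 against −0.04. The level counts each reporter once, whereas a share weighs each by its counts. Why share and level differ was not tested.

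**Figure D2:**
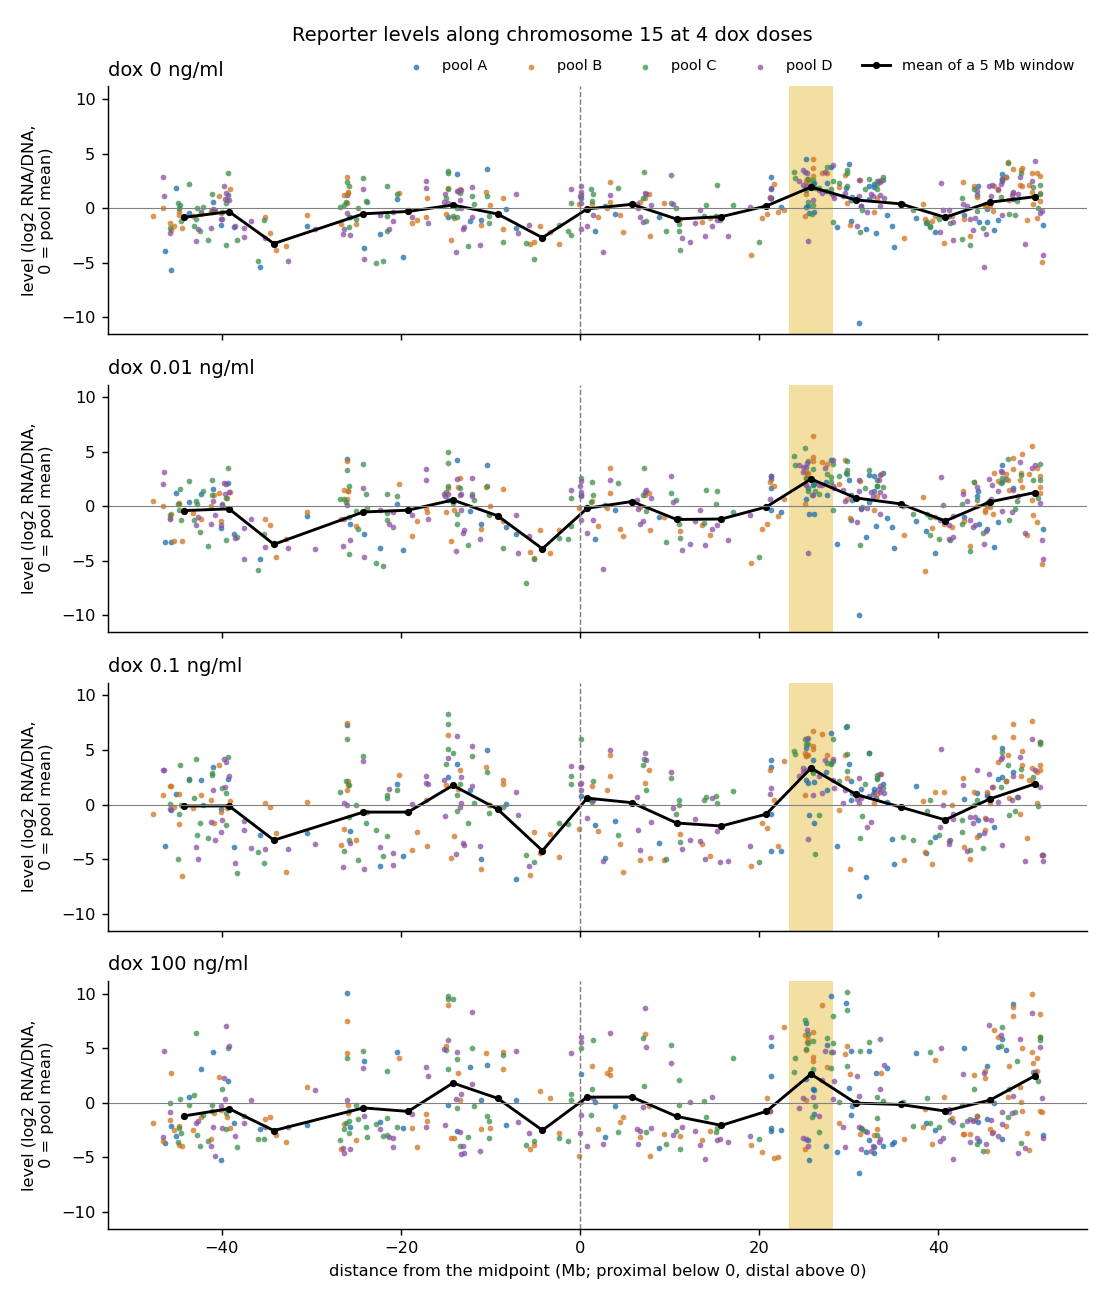
Level of each chromosome 15 reporter (log2 RNA/DNA, 0 = pool mean) against its distance in Mb from the midpoint, at 4 dox doses. Dots are reporters coloured by pool, the black line joins means of 5 Mb windows with at least 5 reporters, and the shaded band is the distal high domain, whose mean is the highest at each dose (1.93 at dox 0 and 2.62 at dox 100).

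Around the domain, levels along the chromosome ran in alternating stretches. The windows next to it in rank at dox 0 were chr15:100000001-105000000, with 35 reporters at a mean of 1.05, and chr15:80000001-85000000, with 42 reporters at 0.76. The lowest were chr15:15000001-20000000, with 9 reporters at −3.24, chr15:45000001-50000000, with 9 reporters at −2.71, and chr15:60000001-65000000, with 14 reporters at −1.0. In the first 2 of these lowest windows, 0 of the 9 reporters lay above the pool mean. Low windows occur on both sides of the midpoint: the window at 60000001 is distal.

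The order of the windows held best at the ends of the scale. At dox 100 the domain was again first with 2.62, and the window at 100000001 second with 2.46, while the windows at 15000001 and 45000001 were again last with −2.55 and −2.53. In these last windows 8 of 9 and 7 of 9 reporters had no RNA at dox 100, so most of their levels are set by the pseudocount and the DNA count. The window at 45000001 also holds no reporter of pool A. Between the ends the order moved. The window at 80000001, rank 3 at dox 0 with 0.76, had −0.04 at dox 100, and the proximal window at 35000001, with 32 reporters, had 1.80 at dox 100 and 0.29 at dox 0. Over all 481 reporters, the level at dox 0 had a Pearson r of 0.93 with that at dox 0.01, 0.74 with that at dox 0.1 and 0.46 with that at dox 100. The reporters share pools and libraries, so these r are descriptions.

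The spread between reporters grew with dose. The SD between reporters corrected for replicate noise (the root of the covariance between both replicates) was 2.07 ± 0.23 at dox 0, 2.42 ± 0.12 at dox 0.01, 3.17 ± 0.18 at dox 0.1 and 3.51 ± 0.14 at dox 100 on the log2 scale (SD, n = 4 pools). Replicates had a Pearson r of 0.91 at dox 0, 0.92 at dox 0.01, 0.79 at dox 0.1 and 0.76 at dox 100 (means over 4 pools). The wider spread came with loss of reads. No member lacked RNA in both replicates at dox 0 or 0.01, but 71 did at dox 0.1 and 221 did at dox 100. At dox 100 another 97 had RNA in 1 replicate alone, with a median count of 67 there, and 163 had RNA in both. A level with no RNA is set by the pseudocount and the DNA count.

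RNA at dox 100 was counted in at least 1 replicate in a larger share of the distal than of the proximal reporters. No RNA was counted in 123 of 294 distal and 98 of 187 proximal reporters, or 41.6% ± 6.28 and 51.7% ± 5.42 per pool (SD, n = 4 pools). The distal share without RNA was the smaller in each of the 4 pools. RNA in both replicates was counted in 110 distal and 53 proximal reporters. That share was larger for distal reporters in pool B (46.2% distal, 30.0% proximal) and pool C (44.4% and 25.0%), equal in pool A (33.3% each) and smaller in pool D (26.1% and 28.3%). Among these the distal mean was 5.03 ± 0.22 and the proximal mean 4.19 ± 0.61 (SD, n = 4 pools). In the distal high domain 8 of 49 had no RNA at dox 100 (16.3%) and 29 had RNA in both replicates. At the other end, 8 of the 9 reporters at chr15:15000001-20000000 had none (88.9%).

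**Figure D3:**
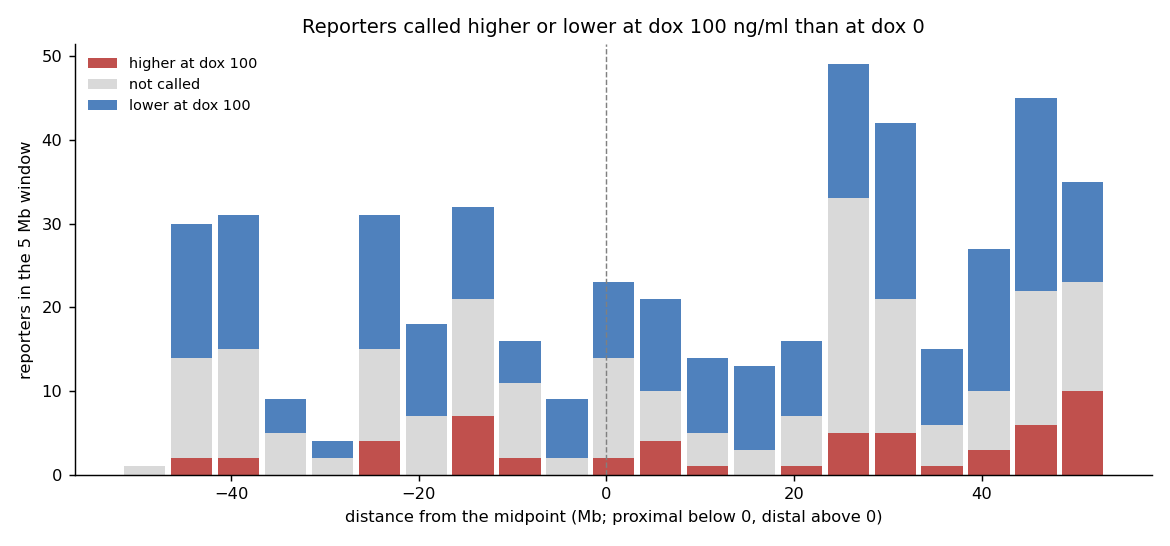
Number of chromosome 15 reporters in each 5 Mb window, by distance from the midpoint in Mb, split into those higher, not called and lower at dox 100 than at dox 0 (edgeR adjusted p under 0.05). The distal high domain has 5 higher and 16 lower of 49, and the most distal window has 10 higher and 12 lower of 35. Of all reporters tested, 10.9% were higher and 50.4% lower.

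The change of single reporters with dose was tested on the counts, as the change of RNA relative to DNA (edgeR quasi-likelihood test per pool, Benjamini-Hochberg adjusted over all reporters of the pool, called under 0.05). RNA libraries are scaled to each other, so higher and lower are relative to that scaling. At dox 0.01, 0 of 481 reporters were called (0.0185% of all reporters tested), 23 had an unadjusted p under 0.05, and DESeq2's Wald test called 3, all lower. At dox 0.1, 46 were higher (9.56%, beside 9.07% of all reporters) and 85 lower (17.7%, beside 19.8% of all). At dox 100, 55 were higher (11.4%, beside 10.9% of all) and 234 lower (48.6%, beside 50.4% of all). In all, 131 were called at dox 0.1 (28.9% of all reporters were) and 289 at dox 100 (61.3% of all). These shares lie near those of the whole series. The median log2 change over the 481 was −0.56 at dox 0.1 and −3.07 at dox 100, against −0.80 and −4.12 over all reporters.

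The split between higher and lower at dox 0.1 depends on the scaling. It was 46 higher and 85 lower with TMM, 24 and 127 with DESeq2's size factors, and 18 and 138 with library totals, so that 35.1%, 15.9% and 11.5% of the calls were higher. Under these scalings the median log2 change of all reporters was −0.80, −1.76 and −1.96. At dox 100 the same splits were 55 and 234, 37 and 263, and 33 and 278, with medians of −4.12, −4.83 and −5.15. All 24 and all 18 of the higher calls at dox 0.1, and all 37 and all 33 at dox 100, were among those called higher with TMM.

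The share of lower calls was nearly the same on both sides of the midpoint. At dox 100, 143 of 294 distal reporters (48.6%) and 91 of 187 proximal reporters (48.7%) were lower, beside 50.4% of all reporters. Higher were 38 distal (12.9%) and 17 proximal (9.09%), beside 10.9% of all. The median fitted log2 change was −2.39 over the distal and −4.10 over the proximal reporters, but −5.72 and −5.43 in pool D. Like shares of calls thus need not mean like changes. Among the 234 that were lower, 203 lacked RNA in both dox 100 libraries, and RNA was counted in both for each of the 55 that were higher. Pools differed in the median fitted log2 change, which was −5.59 over the members of pool D, −2.0 in pool A, −2.63 in pool B and −2.58 in pool C. In pool D 50.0% of the distal and 56.6% of the proximal reporters had no RNA at dox 100. Depth limits the fitted change of such reporters, so the pool D median need not be a measured size of change. Reporters that were higher at dox 100 had a median level of 0.94 at dox 0, those that were lower −0.11, and those not called 0.35.

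Single reporters show how far apart the responses went. Pool A at 76907784 (minus strand), in the distal high domain, was the highest at dox 0 with a level of 4.52 ± 0.82 (SD, n = 2 replicates). It had 5102 and 5264 RNA counts at dox 0, 3759 and 4065 at dox 0.01, 2068 and 2272 at dox 0.1, and 1762 and 1784 at dox 100. DNA counts of this barcode ran from 238 to 817 over the 8 libraries. The others of the top 5 at dox 0 were pool B at 77738721 (4.47), also in the domain, pool D at 102523419 (4.31), pool B at 99510889 (4.23) and pool C at 99508953 (4.12). The last 2 lie 1936 bp apart in different pools, and at dox 100 each had RNA in 1 replicate only, 61 counts in pool B and 72 in pool C.

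The lowest reporter at dox 0, pool A at 82855831 (plus strand), lies distal as well, 2.86 Mb beyond the domain. It had 0 and 1 RNA counts at dox 0 beside 3199 and 3696 DNA counts, and 2 and 0, 0 and 0, and 0 and 0 RNA counts at dox 0.01, 0.1 and 100. Its level of −10.52 ± 0.43 at dox 0 (SD, n = 2 replicates) is limited by depth. The next lowest were pool A at 5995321 (−5.67), pool A at 15940280 (−5.39), pool D at 96840770 (−5.38) and pool C at 28963796 (−5.04). Pool D at 96840770 had 38 and 1 RNA counts at dox 0, so its replicates disagree.

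The highest levels at dox 100 belonged to pool C at 81531530 (10.12), pool A at 25699404 (10.05), pool B at 102235686 (9.97), pool A at 79678505 (9.76) and pool C at 36941376 (9.74), of which the second and the last are proximal. The top one, 1.53 Mb past the domain, had 1157 and 1194 RNA counts at dox 0, 2279 and 2253 at dox 0.01, 6474 and 3778 at dox 0.1, and 3449 and 3836 at dox 100. Its log2 change at dox 100 was 4.07 ± 0.55 (edgeR adjusted p = 7.67e-05), where the SE is the change divided by the square root of its F statistic and not an SE from the fit. Pool A at 79678505, in the domain, had 9064 and 7410 RNA counts at dox 100, against 5159 and 4553 at dox 0. Its log2 change was 3.02 ± 0.52 (edgeR adjusted p = 0.00046).

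The largest rises at dox 100 were found on both sides of the midpoint. Pool C at 37476355 (plus strand, proximal) had 91 and 132 RNA counts at dox 0, 163 and 176 at dox 0.01, 949 and 605 at dox 0.1, and 2378 and 1410 at dox 100. Its log2 change was 6.41 ± 1.22 (edgeR adjusted p = 0.000859), with 17 and 307 DNA counts at dox 100. Pool C at 79913601 (minus strand), near the distal edge of the domain, went the same way with 108 and 124, 186 and 194, 847 and 526, and 3198 and 3189 RNA counts at the 4 doses. Its log2 change was 6.34 ± 0.55 (edgeR adjusted p = 4.02e-06). Pool C at 79914183, its neighbour 582 bp away in the same pool, had 783 and 281 RNA counts at dox 100, against 1259 and 1313 at dox 0, and was not called. The other 3 largest rises were pool A at 25699404 (5.76), pool A at 100058949 (5.12) and pool C at 43112106 (4.91).

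The 5 largest falls at dox 100 by fitted change were all distal, and each had no RNA in either dox 100 library, so that the order among them is not measured. With no RNA left, the size of a fall is set by RNA/DNA at dox 0 and by depth. Distal reporters stood higher at dox 0, so the side of these 5 is not a separate result. Pool B at 73321176 (plus strand) had 4217 and 4021 RNA counts at dox 0, 2286 and 2120 at dox 0.01, 181 and 150 at dox 0.1, and 0 and 0 at dox 100, with 1114 to 1798 DNA counts over the 8 libraries. Against a floor of 3 counts over both dox 100 libraries its RNA/DNA was lower by at least 1506-fold (edgeR adjusted p = 7.49e-07). This floor and the bounds below cover counting error only. Cultures differed by more, since 97 members had RNA in 1 dox 100 replicate alone, with a median of 67 counts there. Pool A at 85546595 was at least 1331-fold, pool A at 84481883 at least 1306-fold, pool C at 100953048 at least 1078-fold and pool B at 101830969 at least 858-fold lower. By this bound pool D at 76649727, in the domain, comes after pool B at 73321176, at least 1421-fold lower, with 0 and 0 RNA counts at dox 100, against 2466 and 2650 at dox 0. It was named after its values were seen. At dox 100 all 14 named rises, falls and highest levels kept their call in all 147 values from alternatives that kept the reporter. Those with a DNA count under 100 drop out under a DNA minimum of 100. Among them are pool C at 81531530 (lowest DNA count 73), pool C at 36941376 (16) and pool C at 37476355 (17).

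Some reporters had already moved at dox 0.1. The 5 largest falls there by fitted change all had no RNA in either dox 0.1 library, and lay at 58393194 and 61133277 in pool B, 6826919 and 77932100 in pool C, and 54523672 in pool A. Pool C at 77932100 is in the domain and had 119 and 112 RNA counts at dox 0, 182 and 168 at dox 0.01, 0 and 0 at dox 0.1, and 33 and 0 at dox 100. Its barcode is also that of pool D at 78764831, another domain member, which was counted apart in its own pool. At dox 0.1 it was lower by at least 249-fold (edgeR adjusted p = 0.00766), and adjusted p was 0.071 with DNA as an offset. The largest rises at dox 0.1 were at 5995321 and 25699404 in pool A and at 37476355, 79913601 and 8783204 in pool C. Pool C at 37476355 lost its dox 0.1 call with DNA as an offset and without any 1 of the 4 replicates of either dose, with an adjusted p of up to 0.151. Pool A at 25699404 lost its call without dox 0 replicate 2 (adjusted p = 0.0525). Pool A at 5995321 rested on few reads, with 19 and 6 RNA counts at dox 0.1, against 2 and 2 at dox 0, and adjusted p was 0.0563 without dox 0 replicate 1 (log2 change 4.29 ± 0.92, edgeR adjusted p = 0.00506 with all libraries).

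**Figure D4:**
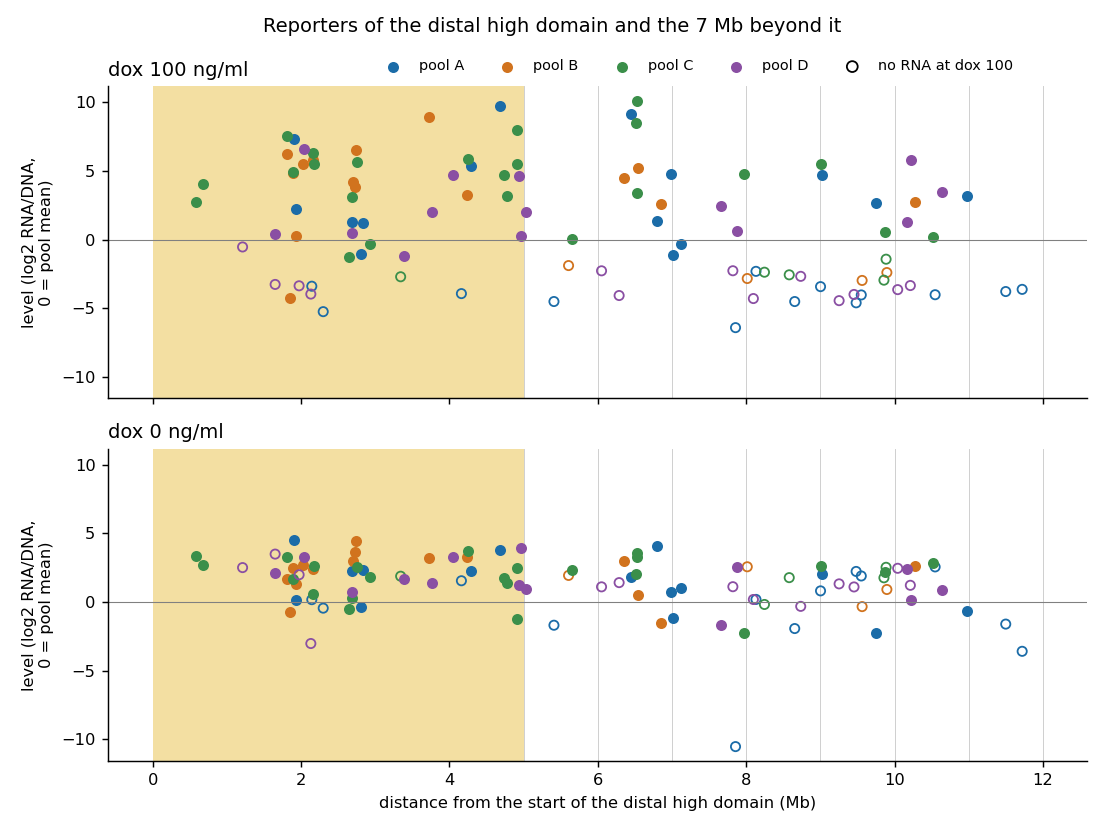
Level (log2 RNA/DNA, 0 = pool mean) at dox 100 and at dox 0 of the reporters in the distal high domain (shaded, 49 reporters) and in the 7 Mb beyond it, against distance in Mb from the domain's start. Dots are reporters coloured by pool, open where no RNA was counted in either dox 100 library; between 8 and 9 Mb all 7 reporters are open, while 2 of 11 are between 6 and 7 Mb.

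Beyond the domain, stretches of 1 Mb differed in what remained at dox 100. They were singled out after their values were seen. The stretch at chr15:81000001-82000000 held 11 reporters from 4 pools, with a mean level of 3.93 at dox 100, against 1.81 at dox 0. There 8 had RNA in both dox 100 libraries, 4 were higher and 3 lower. Of all reporters tested, 10.9% were higher and 50.4% lower at dox 100. At chr15:83000001-84000000, 7 reporters from 4 pools had a mean of −3.07 at dox 100, against 0.33 at dox 0. None of the 7 had RNA at dox 100 and 6 were lower. At chr15:84000001-85000000 the mean was −1.28 at dox 100, against 1.30 at dox 0, and 9 of 13 reporters had no RNA.

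Close neighbours from different pools nearly share a landing site and share no culture. The nearest pair on the chromosome, pool C at 38322708 (minus strand) and pool D at 38322709 (plus strand), lie 1 bp apart. They stood at 1.37 and 0.78 at dox 0, 1.65 and 1.06 at dox 0.01, 1.85 and −0.22 at dox 0.1, and −3.97 and −2.64 at dox 100. In the domain, pool C at 76805340 and pool B at 76805961 (both minus strand) lie 621 bp apart, and stood at 3.29 and 1.71, 5.37 and 2.08, 6.03 and 4.76, and 7.57 and 6.22. At dox 100 both members of the first pair lay below their pool means and both of the second pair above. Another pair in the domain, at 77681694 in pool C and 77682034 in pool A, stood at 3.12 and 1.26 at dox 100, against 0.31 and 2.29 at dox 0. The pair at 95668444 in pool C and 95669026 in pool B stood at 1.24 and 2.53 at dox 100, and the pair at 21256710 in pool A and 21257303 in pool B at −2.07 and 1.47.

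Over all pairs from different pools, likeness fell with distance. Pairs under 10 kb apart (38 pairs) had a Pearson r of 0.36 at dox 0, 0.38 at dox 0.01, 0.54 at dox 0.1 and 0.63 at dox 100. Pairs 10 to 100 kb apart (289) had 0.28, 0.32, 0.41 and 0.28, and pairs 100 kb to 1 Mb apart (1955) had 0.21, 0.22, 0.16 and 0.08. On the other chromosomes, pairs under 10 kb (1040) had 0.37, 0.44, 0.61 and 0.59. A reporter enters several pairs, so these r have no test.

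Windows with more reporters had higher levels. Over the 19 windows of 5 Mb, the number of reporters had a Pearson r with the mean level of 0.72 at dox 0, 0.75 at dox 0.01, 0.80 at dox 0.1 and 0.69 at dox 100, with a Spearman rho of 0.71, 0.74, 0.84 and 0.72. Without the domain, r was 0.64, 0.68, 0.74 and 0.60 over 18 windows. Within the distal reporters it was 0.73, 0.72, 0.77 and 0.63 over 11 windows, and within the proximal ones 0.55, 0.62, 0.51 and 0.58 over 9. Spearman rho was 0.75, 0.69, 0.85 and 0.75 within the distal reporters, and 0.39, 0.44, 0.38 and 0.67 within the proximal ones. Over 490 windows of the other chromosomes Pearson r was 0.53, 0.53, 0.45 and 0.30. The windows share pools, libraries and depth, and the number of reporters had an r of −0.08 with the mean log2 DNA count.

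**Figure D5:**
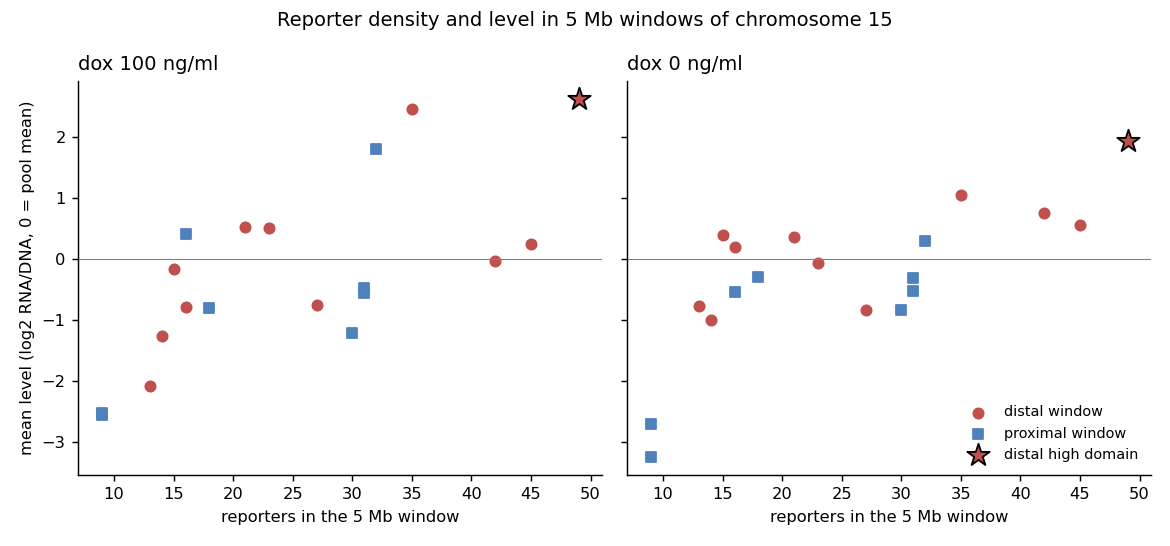
Mean level (log2 RNA/DNA, 0 = pool mean) against the number of reporters in the 19 windows of 5 Mb with at least 5 reporters, at dox 100 and at dox 0. Circles are windows centred distal and squares windows centred proximal to the midpoint, and the star is the distal high domain, which has the most reporters (49) and the highest mean at both doses.

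The same order was seen reporter by reporter. The 161 reporters with fewest others within 500 kb (0 to 5) had a mean level of −1.03 ± 0.44 at dox 0, the 160 in the middle (5 to 8) 0.14 ± 0.40, and the 160 with most (8 to 24) 1.08 ± 0.33 (SD, n = 4 pools). At dox 0.1 they stood at −1.53 ± 0.60, 0.38 ± 0.35 and 1.92 ± 0.68, and at dox 100 at −1.13 ± 0.18, 0.33 ± 0.22 and 1.42 ± 1.24 (SD, n = 4 pools). Reporters tied at 5 or at 8 others were parted in order of position, the more proximal into the group with fewer. Distal reporters made up 46.0%, 68.1% and 69.4% of the 3 groups, so density and side of the midpoint overlap in part. How much of these shares and levels comes from the parting of ties was not tested.

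Barcode and depth differed little between the sides. The median DNA count at dox 0 was 315 for distal and 329 for proximal reporters, and barcode GC content averaged 41.2% and 41.6%. Over the 481 reporters, barcode GC had an r of −0.01 with the level at dox 0, and the log2 DNA count, which is part of the level, an r of −0.17.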

How the data were processed

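Barcode read counts, not normalized, were deposited as 1 table of the series, per the file headers with RNA (expression) and DNA (normalization) counts per pool, dose and replicate and with a mapped position. Of 80 labelled samples 64 are RNA or DNA libraries, and 16 mapping libraries enter only through the positions. Per the submitters' processing notes Bowtie2 2.0 and mm9 were used. The table had 0 columns of sample values left unused.

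A reporter was kept when each DNA library of its pool gave it at least 10 counts. edgeR 4.0.16 in R 4.3.3 fitted 16 libraries per pool with terms for assay, for dose and for the interaction of both, with TMM scaling inside each assay and adjustment over all reporters of the pool. All doses share 1 estimate of the spread. DNA was tested the same way on 8 libraries per pool. Contrasts, windows, density and pairs were described from levels, as means over pools, with Python 3.11.15, numpy 2.4.6, pandas 2.3.3 and matplotlib 3.10.9. DESeq2 1.42.0 was an alternative, beside other scalings, DNA minimums, pseudocounts, windows and left-out replicates or pools. The model was also run on simulated data. The outcome of that run is not given here, and no conclusion about the calls or about reporters without RNA is drawn from it.

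Members, domain and the rule for named reporters were chosen with earlier results of these data known. By that rule the text names the 5 highest and 5 lowest at dox 0, the 5 highest at dox 100, the 5 largest called falls and rises at dox 0.1 and 100, called members at dox 0.01, the 5 nearest pairs from different pools, and the 3 highest and 3 lowest windows. The labels say that each replicate culture was divided over the 4 doses, so replicate numbers pair the samples. Deviations of same-numbered RNA/DNA levels from their means had an r of −0.05 to 0.05 between doses. The labels name no molecular identifiers for the PCR, so floors cover counting error only.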

Additional observations from a re-analysis of the deposited data

Results flagged for a closer look

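In 2 of 72 sets of 4 pool values, 1 pool stood far from the other 3, and about 1 in 20 such sets do so by chance. The sets were, by dose, levels of the chromosome and its sides, shares of counts, shares without RNA and means of named windows. They overlap in reporters and are not independent. Both cases were window means. At chr15:80000001-85000000 and dox 0.1, pool C had a mean level of 2.44, where the other pools lay between 0.34 and 0.41. At chr15:15000001-20000000 and dox 100, pool C had a mean level of −3.32, where the other pools lay between −2.40 and −2.24. The second set rests on 9 reporters, 2 of them in pool C.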

How the results depend on the processing

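Of the changes of count and contrast, none reversed under any alternative. At dox 0.01 DESeq2's Wald test called 3 reporters, where edgeR called 0. At dox 0.1 the 131 calls became 79 with log DNA counts as an offset, and ran from 77 to 146 when 1 replicate of a dose was left out; the low values came without dox 0 replicate 1 (77) and without dox 0 replicate 2 (79). Without the window at 75000001 the distal minus proximal difference was 0.92 at dox 0, 0.72 at dox 0.01 and 0.47 at dox 0.1, and the median over reporters gave 1.44 at dox 0.01. Leaving out 1 pool gave 1.16 to 1.27 at dox 0, 0.99 to 1.23 at dox 0.01, 0.83 to 1.17 at dox 0.1 and 0.64 to 1.22 at dox 100. With a replicate block, 56 reporters were higher and 230 lower at dox 100, and 42 and 81 at dox 0.1; the block changed no count by over 1.5 times. Of the 10 named changes at dox 0.1, 4 lost their call under at least 1 alternative, in 11 of 106 values. With 10 Mb windows the density r at dox 100 was 0.41. With RNA at 0 in both libraries, the depth limits any fold to a bound, and the causes of these shifts were not tested.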

Other observations

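The stretches of 1 Mb given here were singled out after their values were seen. At chr15:36000001-37000000, 9 reporters from 4 pools had a mean level of 4.54 at dox 100, against 1.15 at dox 0. Of these, 7 had RNA in both dox 100 libraries, 4 were higher and 1 was lower (edgeR adjusted p under 0.05). Over all reporters tested, 10.9% were higher and 50.4% lower at dox 100. At chr15:38000001-39000000, 8 reporters from 3 pools had a mean level of −2.01 at dox 100, against 0.43 at dox 0, and 5 had no RNA at dox 100. Of these 8, 6 were lower and none was higher. At chr15:102000001-103000000 all 9 reporters, from 3 pools, had RNA in at least 1 dox 100 library, with a mean level of 4.56 at dox 100, against 1.79 at dox 0.

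By strand, the 239 plus-strand reporters had a mean level of −0.10 ± 0.11 at dox 0 and the 242 minus-strand reporters 0.23 ± 0.28 (SD, n = 4 pools). At dox 100 they stood at 0.13 ± 0.49 and 0.30 ± 0.44 (SD, n = 4 pools). The plus strand held 45.6% of the distal and 56.1% of the proximal reporters, so strand and side of the midpoint overlap in part.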
